A study of Mus musculus with 6 samples.

Results

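The genes examined here encode the core of the corepressor complexes that work with the myeloid translocating gene (MTG) proteins. They are Ncor1, Tbl1x, Tbl1xr1, Gps2 and Hdac3 of the NCoR complex, Sin3a and Sin3b of the SIN3 complex, and the class I histone deacetylase genes Hdac1 and Hdac2. They were chosen by name, and all 9 were found among the 24736 gene symbols of the deposited table and among the 12268 genes tested. The libraries came from intestinal crypts of 12-week-old male mice, isolated along the full length of the gut in cold EDTA, with 3 mice labelled wild-type (WT) and 3 labelled Mtg16-/-, and 1 library of ribosomal RNA-depleted total RNA per mouse. The labels call the knockout CRISPR-induced, whereas the study's methods describe Mtg16-/- mice received from another laboratory. The knockout is not limited to the epithelium by either description.

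MTG proteins do not bind DNA themselves. They are brought to genes by DNA-binding factors such as the E proteins, and they in turn bring NCoR, SIN3 and histone deacetylases, which remove acetyl groups from histone tails and lower transcription. In the NCoR complex the large scaffold protein binds and activates HDAC3, while the WD40-repeat proteins TBL1X and TBL1XR1 and the small protein GPS2 are its stable companions. SIN3A and SIN3B are alternative scaffolds that carry HDAC1 or HDAC2, enzymes that also serve the NuRD, CoREST and MiDAC complexes. In the intestinal epithelium HDAC1 and HDAC2 are known for maintaining tissue architecture, and HDAC3 for barrier function and lipid handling. The comparison asks whether the transcripts of these partners differed in level between mice labelled Mtg16-/- and WT.

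None of the 9 genes was called between the libraries labelled Mtg16-/- and WT (limma's moderated test on log2(TPM + 1), adjusted p between 0.436 and 0.987). TPM, the share of a library's transcripts counted per 1000000, scales each library to the same total and corrects for transcript length, so levels of different genes can be set side by side. The limit for a call was an adjusted p under 0.1, which 0.0326% of the tested genes passed, 4 in all. At an unadjusted p under 0.05 the number was 0 of the 9 genes and 14.6% of all tested genes. The median log2 fold change of the 9 genes was 0.07, with 7 above 0 and 2 below, beside a median of -0.03 over all tested genes. The median size of the log2 fold change, sign ignored, was 0.12 for the 9 genes and 0.19 for all tested genes.

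Pairs of these genes descend from a common ancestor, so the sequences were compared first to see whether a short read could belong to either. The coding sequences of Hdac1 and Hdac2 were identical at 75.8% of 1443 aligned bases, and the longest identical run along the alignment was 17 bases. Hdac3 was identical to Hdac1 at 68% and to Hdac2 at 64.2%, with longest such runs of 23 and 17 bases. The coding sequences of Tbl1x and Tbl1xr1 were identical at 77.5% of 1539 aligned bases, with a longest such run of 20 bases. Those of Sin3a and Sin3b were identical at 66.6%, with a longest such run of 26 bases. In the most similar coding stretch of 90 bases that lies in 1 exon of each gene, Hdac1 and Hdac2 differed at 14 bases, and Tbl1x and Tbl1xr1 at 17 bases. These stretches are shown, 5′ to 3′ on the coding strand of GRCm38, because they are the most alike of the windows compared between the paralogs. Untranslated parts and windows across exon borders were not compared in this way. Capitals mark the bases at which the paralogs differ. The Hdac1 stretch is in exon 2 of 14, chr4:129534623-129534712 on the minus strand, and the Hdac2 stretch is in exon 2 of 14, chr10:36985141-36985230 on the plus strand. The Tbl1x stretch is in exon 5 of 16, chrX:77646208-77646297 on the plus strand, and the Tbl1xr1 stretch is in exon 6 of 17, chr3:22189768-22189857 on the plus strand.
Hdac1: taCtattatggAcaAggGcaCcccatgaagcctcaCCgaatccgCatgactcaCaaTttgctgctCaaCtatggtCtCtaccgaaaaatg
Hdac2: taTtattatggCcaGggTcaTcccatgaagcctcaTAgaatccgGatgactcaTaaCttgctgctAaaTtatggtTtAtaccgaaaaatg
Tbl1x: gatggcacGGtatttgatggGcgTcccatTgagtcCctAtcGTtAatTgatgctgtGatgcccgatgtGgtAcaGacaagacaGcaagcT
Tbl1xr1: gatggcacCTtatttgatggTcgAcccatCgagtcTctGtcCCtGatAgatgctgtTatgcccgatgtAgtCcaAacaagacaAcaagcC

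Every run of 50 bases in the transcript of each gene was also searched in all other GENCODE transcripts, on both strands. Sin3b, Hdac2, Hdac3 and Tbl1x shared none, and Ncor1, Sin3a, Tbl1xr1 and Gps2 shared at most 3.57%. The shared runs of Sin3a lie in Man2c1os, an antisense gene whose exons overlap 205 bases of the Sin3a transcript. Hdac1 stood apart, with 58.7% of its runs shared with processed pseudogenes and 56.4% with Gm10093 alone (chr17:78491582-78493025 on the plus strand). The Hdac1 stretch given above occurs in Gm10093 without a single difference, at chr17:78491645-78491734 on the plus strand, which is why it is shown again.
Gm10093: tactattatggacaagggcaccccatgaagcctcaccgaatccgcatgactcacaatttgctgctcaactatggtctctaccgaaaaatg
The level of Gm10093 was not analysed here, so the level of Hdac1 is uncertain to the extent that reads were placed in one or the other. The search used GENCODE M21, whose gene names differ in part from those deposited. The authors' annotation may therefore hold other transcripts.

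The targeted gene, Cbfa2t3, which encodes MTG16, had a TPM of 3.67, 6.69 and 4.52 in WT. The libraries labelled Mtg16-/- had 4.62, 6.43 and 3.23, so the gene did not separate the genotypes. A TPM per gene sums over exons and cannot show a deleted part, and every direction below rests on the labels. Of the related genes, Cbfa2t2 (MTGR1) lay between 11.3 and 13.0 TPM in all 6 libraries, and Runx1t1 (MTG8) between 0.15 and 0.35 in WT and between 1.08 and 1.20 in the libraries labelled Mtg16-/-, below the level required for testing. The 5 epithelial markers summed to between 7990 and 8821 TPM in all 6 libraries, while the 8 immune markers summed to at most 102 and the 7 mesenchymal and endothelial markers to at most 19.6. Other cell type markers moved with the groups: the 10 enterocyte markers were all lower in mean in the libraries labelled Mtg16-/- (summed TPM of 12640 to 35950 in WT and 6462 to 12955), and all 6 Paneth cell, all 6 enteroendocrine and all 6 stem cell markers were higher in mean. Of the 6 goblet cell markers 2 were higher and 4 lower in mean. None of these markers was at 0 in every library, and none of those tested passed the limit for a call. Of the 7 mesenchymal and endothelial markers only 3 were tested. Acta2, Col1a1, Col1a2 and Pdgfra were below the level required for testing. WT replicate 1 held by far the largest enterocyte sum, 35950 TPM. In bulk crypts, fewer cells of a type and less RNA per cell cannot be told apart, and the part of these shifts in the values below was not tested.

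The 9 genes were well expressed in crypts, each above the level of at least 65.6% of the tested genes. In WT the order of the mean levels was Ncor1 (99.0 TPM), Hdac1 (88.3), Hdac3 (88.2), Sin3b (71.6), Hdac2 (58.4), Gps2 (47.4), Tbl1x (39.9), Tbl1xr1 (36.3) and Sin3a (33.8). Neighbours in this order were separated beyond the range of their 3 WT libraries only between Hdac3 and Sin3b, between Sin3b and Hdac2, and between Gps2 and Tbl1x. In the libraries labelled Mtg16-/- the order began with Hdac3 (92.0), Hdac1 (88.6) and Ncor1 (80.7), and the only neighbours without overlap were Hdac2 and Tbl1x. Summed over the 9 genes, the level was 562, 546 and 581 TPM in WT and 563, 578 and 572 TPM in the libraries labelled Mtg16-/-. The 6 sums thus lay close together, and those of the groups overlapped. The spread within a group was also small, with a median coefficient of variation of 7.43% in WT and 8.55% in Mtg16-/-, where all tested genes had medians of 15.4% and 14.0%. The 9 genes had a median WT level of 58.4 TPM against 21.1 for all tested genes, and the part of this higher level in their smaller spread was not tested.

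**Figure D1:**
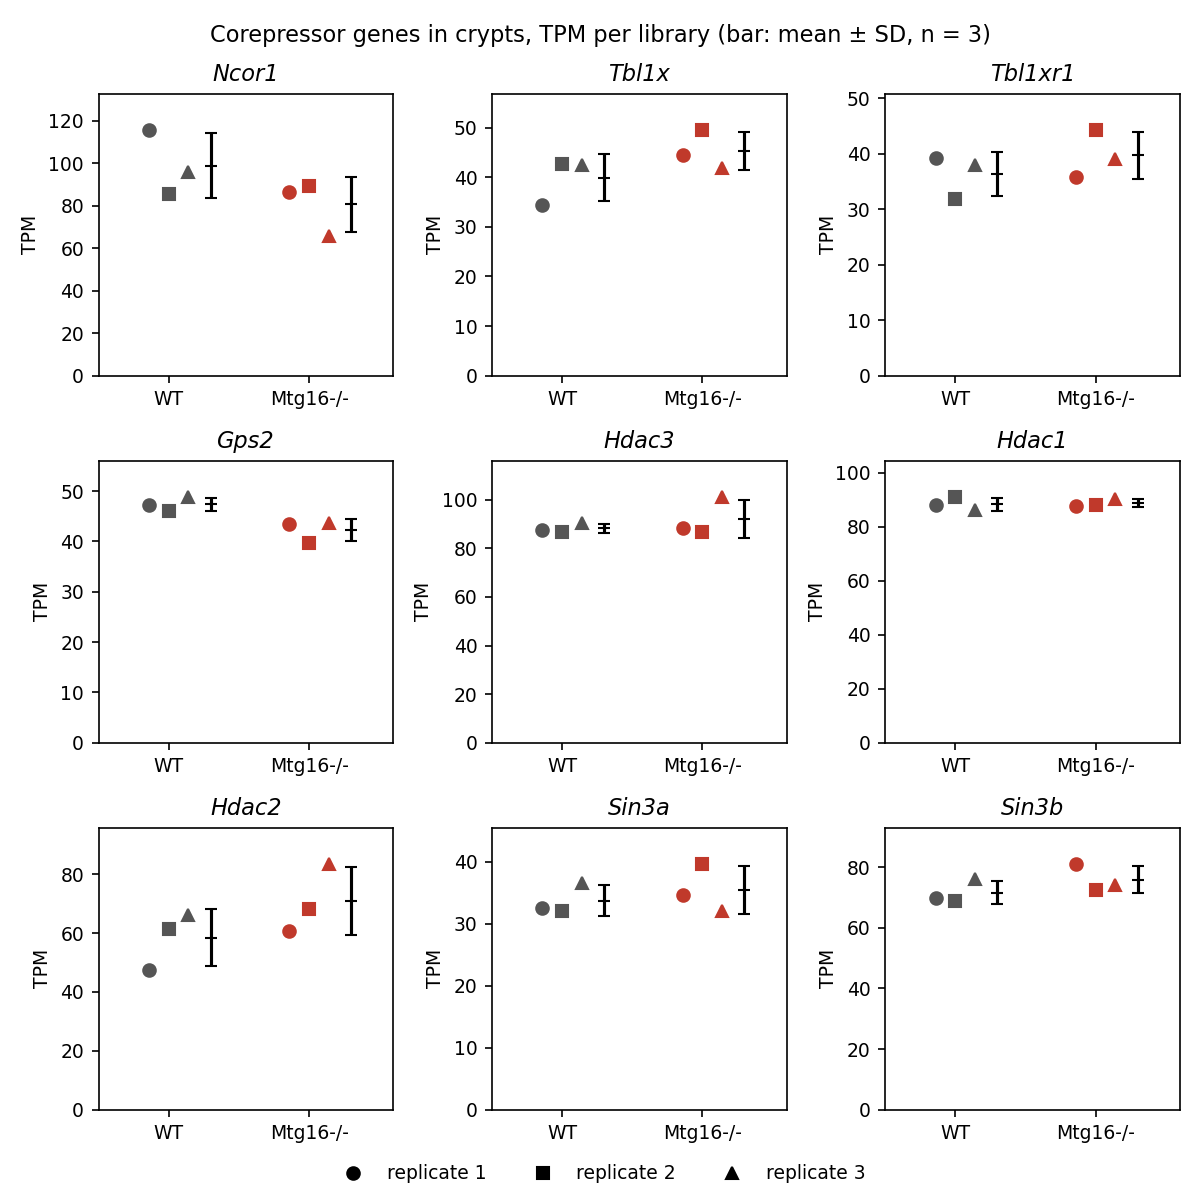
Level of each of the 9 corepressor genes (vertical axis, TPM, starting at 0) in the 3 WT and 3 Mtg16-/- libraries, with 1 symbol per replicate number and a bar for the mean ± SD (n = 3). Only the values of Gps2 do not overlap between the groups. Ncor1 and Hdac2 are spread most widely, from 66.0 to 116 and from 47.6 to 83.4 TPM.

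Ncor1 (chr11:62316426-62458541, minus strand, 46 exons) encodes the scaffold of the NCoR complex. Its level was 116, 85.4 and 95.9 TPM in WT replicates 1 to 3 and 86.7, 89.5 and 66.0 TPM in the corresponding libraries labelled Mtg16-/-. The highest value was that of WT replicate 1 and the lowest that of Mtg16-/- replicate 3, while the other 4 libraries lay between 85.4 and 95.9 and overlapped. Its log2 fold change was -0.29 (standard error, SE, 0.17, 95% interval -0.68 to 0.09, limma's adjusted p = 0.436). It was -0.18 without WT replicate 1 and -0.16 without Mtg16-/- replicate 3, so these libraries decided much of its size.

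Gps2 (chr11:69913888-69916591, plus strand, 11 exons), the small subunit that joins the NCoR scaffold and the TBL1 proteins, was the only one of the 9 genes whose groups did not overlap. Its level was 47.3, 46.1 and 48.8 TPM in WT and 43.4, 39.8 and 43.7 TPM in the libraries labelled Mtg16-/-. All 3 Mtg16-/- values thus lay below the lowest WT value, by a small margin. The same separation, with Mtg16-/- lower, was present in 11.1% of all tested genes, with Mtg16-/- higher in 9.94%, and in either direction in 21.0%, so 1 of 9 is no more than the background. On the log2 scale the difference was -0.16 (SE 0.11, 95% interval -0.41 to 0.09, limma's adjusted p = 0.504), a mean 10.8% lower. A two-sided exact permutation test gave p = 0.1, the smallest value that 3 mice against 3 allow. Groups that do not overlap always give this value, so it adds nothing to the separation. This difference stayed between -0.19 and -0.12 with each library left out in turn.

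Tbl1x and Tbl1xr1 encode the WD40-repeat subunits that bind the scaffold and histone tails. Tbl1x (chrX:77511013-77662983, plus strand, 16 exons) had 34.5, 42.8 and 42.5 TPM in WT and 44.6, 49.5 and 41.8 TPM in the libraries labelled Mtg16-/-. WT replicate 1 was low, and the other 5 libraries overlapped. The log2 fold change of Tbl1x was 0.18 (SE 0.13, 95% interval -0.13 to 0.49, limma's adjusted p = 0.538), and it was 0.08 without WT replicate 1. Tbl1xr1 (chr3:22076652-22216594, plus strand, 17 exons) had 39.2, 31.9 and 38.0 TPM in WT and 35.8, 44.2 and 39.1 TPM in the libraries labelled Mtg16-/-. Its groups overlapped, with the lowest value in WT replicate 2 and the highest in Mtg16-/- replicate 2. For Tbl1xr1 the log2 fold change was 0.12 (SE 0.14, limma's adjusted p = 0.684), and it was 0.03 without WT replicate 2, 0.05 without Mtg16-/- replicate 2 and 0.19 without Mtg16-/- replicate 1.

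Hdac3 (chr18:37935844-37955016, minus strand, 15 exons), the deacetylase of the NCoR complex, had 87.4, 86.9 and 90.4 TPM in WT and 88.4, 86.7 and 101 TPM in the libraries labelled Mtg16-/-. Mtg16-/- replicate 3 alone stood above the others, and the remaining 5 libraries lay within 86.7 and 90.4 TPM. The log2 fold change was 0.06 (SE 0.11, 95% interval -0.21 to 0.32, limma's adjusted p = 0.834), and it was -0.01 without that library.

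Hdac1 and Hdac2 encode the paired deacetylases of the SIN3 complex. Hdac1 (chr4:129516104-129542713, minus strand, 14 exons) had 87.9, 90.9 and 86.2 TPM in WT and 87.5, 88.1 and 90.3 TPM in the libraries labelled Mtg16-/-, the narrowest range of the 9 genes. On the log2 scale Hdac1 differed by 0.01 (SE 0.10, limma's adjusted p = 0.987), with a 95% interval of -0.24 to 0.25, which corresponds to a ratio of 0.850 to 1.19. Hdac2 (chr10:36974544-37001889, plus strand, 14 exons) had 47.6, 61.5 and 66.2 TPM in WT and 60.8, 68.3 and 83.4 TPM in the libraries labelled Mtg16-/-. The lowest value was that of WT replicate 1 and the highest that of Mtg16-/- replicate 3, the reverse of Ncor1, and the other 4 libraries overlapped. For Hdac2 the log2 difference was 0.28 (SE 0.17, limma's adjusted p = 0.471). Its 95% interval of -0.12 to 0.67 corresponds to a ratio of 0.920 to 1.59. It was 0.14 without WT replicate 1 and 0.15 without Mtg16-/- replicate 3. The 6 proliferation markers summed to 546 TPM in WT replicate 1 and to 637 to 780 in the other 5 libraries, and their part in these values was not tested.

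Sin3a and Sin3b encode the alternative SIN3 scaffolds. Sin3a (chr9:57072040-57128366, plus strand, 21 exons) had 32.5, 32.1 and 36.7 TPM in WT and 34.7, 39.6 and 32.1 TPM in the libraries labelled Mtg16-/-, with the lowest and the highest value both in Mtg16-/-. Sin3b (chr8:72723285-72758201, plus strand, 19 exons) had 70.0, 68.8 and 76.0 TPM in WT and 81.0, 72.5 and 74.1 TPM in the libraries labelled Mtg16-/-, and its groups overlapped as well. The log2 fold change was 0.07 for Sin3a (SE 0.13, 95% interval -0.23 to 0.36) and 0.08 for Sin3b (SE 0.11, 95% interval -0.18 to 0.34), with limma's adjusted p at 0.834 and 0.744. With each library left out in turn the value ranged from -0.02 (without Mtg16-/- replicate 2) to 0.13 (without Mtg16-/- replicate 3) for Sin3a, and from 0.04 (without Mtg16-/- replicate 1) to 0.13 (without WT replicate 3) for Sin3b.

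**Figure D2:**
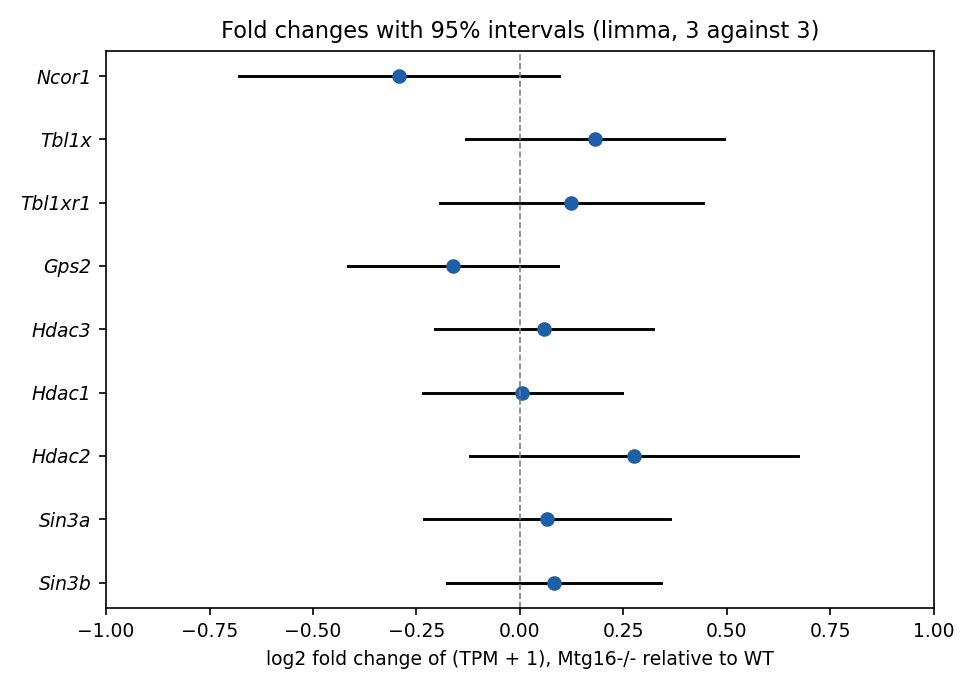
Log2 fold change of TPM + 1 in the libraries labelled Mtg16-/- relative to WT (horizontal axis) for the 9 genes. Lines are 95% intervals from limma with 3 libraries per group. All 9 intervals include 0, and the points lie between -0.29 for Ncor1 and 0.28 for Hdac2.

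The balance between paralogs was then compared as a ratio within each library, which does not depend on how the library was scaled. The ratio of Hdac1 to Hdac2 was 1.85, 1.48 and 1.30 in WT and 1.44, 1.29 and 1.08 in the libraries labelled Mtg16-/-. Hdac1 thus had the higher TPM in all 6 libraries, and its lead was largest in WT replicate 1 and smallest in Mtg16-/- replicate 3. Of the runs of 50 bases of Hdac1, 58.7% also occur in other GENCODE transcripts. The ratio is therefore uncertain to the extent that reads were placed in those. The log2 ratio differed by -0.27 between the groups (two-sided exact permutation test, p = 0.2, adjusted over the 3 ratios p = 0.6). Of the summed TPM of Hdac1, Hdac2 and Hdac3, Hdac2 made up 21.3% to 27.3% in WT and 25.7% to 30.4% in the libraries labelled Mtg16-/-.

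Sin3b was the more abundant SIN3 scaffold transcript in every library. The ratio of Sin3a to Sin3b was 0.465, 0.467 and 0.482 in WT, a narrow range, and 0.428, 0.546 and 0.433 in the libraries labelled Mtg16-/-, which lay on both sides of it. The log2 ratio differed by -0.02 (two-sided exact permutation test, p = 1). Tbl1x and Tbl1xr1 were near parity, with a ratio of 0.881, 1.34 and 1.12 in WT and 1.25, 1.12 and 1.07 in the libraries labelled Mtg16-/-. Their log2 ratio differed by 0.06 (two-sided exact permutation test, p = 0.8). With 3 mice against 3 these exact tests cannot go below p = 0.1.

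**Figure D3:**
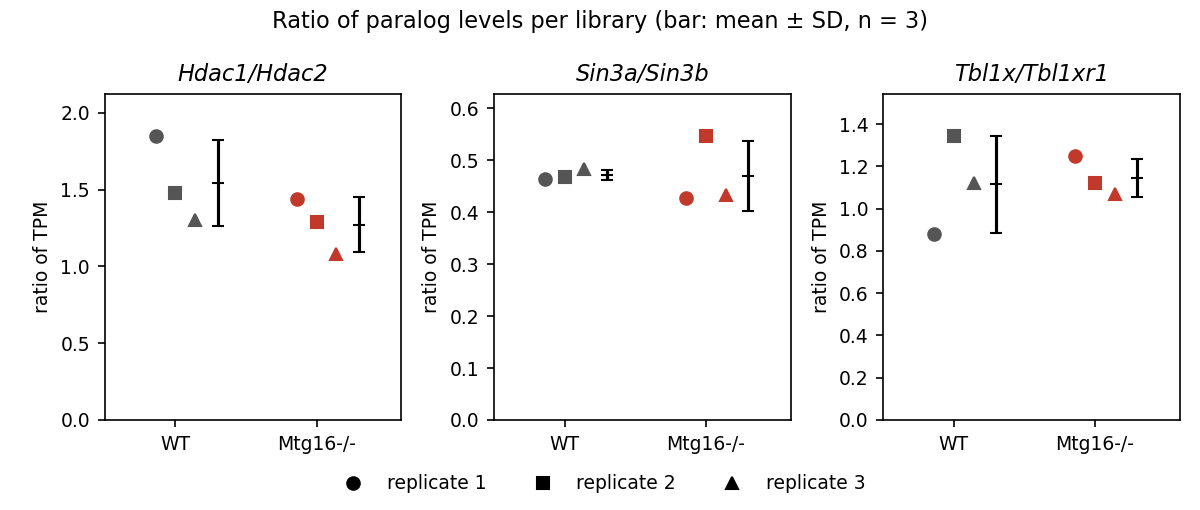
Ratio of the TPM of 3 paralog pairs (vertical axis, starting at 0) in each library, with 1 symbol per replicate number and a bar for the mean ± SD (n = 3). Values of WT and Mtg16-/- overlap in each pair. Hdac1/Hdac2 is above 1 and Sin3a/Sin3b below 1 in all 6 libraries.

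The wider machinery was described with 9 lists of other subunits, enzymes and recruiting factors, 91 genes in all, of which 85 were tested. None was called (smallest adjusted p from limma 0.272), and 43 were above and 42 below 0 on the log2 scale, with a median of 0.01. An unadjusted p under 0.05 was found for 11 of the 85 (12.9%, against 14.6% of all tested genes). The groups did not overlap in 23 of them (27.1%, against 21.0% of all tested genes), with Mtg16-/- above WT in 14 and below it in 9. Neither the 85 genes nor any single list was tested against the 21.0%. In the 8 lists with more than 1 tested gene the median lay between -0.05 and 0.12.

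Coro2a, which encodes a coronin that links the NCoR complex to actin, was more abundant than any of the 9 genes. It had 352, 315 and 311 TPM in WT and 303, 245 and 240 TPM in the libraries labelled Mtg16-/-, without overlap. Its log2 fold change was -0.31 (limma's adjusted p = 0.351). Gm16731, annotated as a processed transcript on the opposite strand, overlaps 7.98% of the Coro2a transcript.

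Among 18 other SIN3 subunits, 9 were above 0 and 9 below. The groups did not overlap in 4, of which 2 were higher, beside 21.0% of all tested genes without overlap. Rbbp7, which encodes a histone-binding WD40 protein shared by SIN3 and NuRD, had 121, 156 and 149 TPM in WT and 160, 181 and 227 TPM in the libraries labelled Mtg16-/- (log2 fold change 0.41, limma's adjusted p = 0.322). Its paralog Rbbp4 had 61.0 ± 7.53 TPM in WT and 77.2 ± 12.9 TPM in Mtg16-/- (SD, n = 3 each), with overlapping groups (0.33, adjusted p = 0.379). Fam60a, a SIN3 subunit now named Sinhcaf, had 22.9, 30.5 and 36.1 TPM in WT and 36.4, 44.1 and 48.0 TPM in the libraries labelled Mtg16-/- (0.52, adjusted p = 0.297). In each of these 3 genes WT replicate 1 was lowest and Mtg16-/- replicate 3 highest, as in Hdac2. Other GENCODE genes share 33.8% of the runs of 50 bases of Rbbp4, 15.1% of those of Rbbp7 and 33.1% of those of Fam60a, so these levels are less certain. Suds3 and Sap130, structural subunits of the complex, did not overlap in the other direction (log2 fold change -0.14 and -0.20, limma's adjusted p = 0.536 and 0.513), and Sap30 overlapped (0.19, adjusted p = 0.587).

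In the NuRD list of 12 genes, 5 were above 0 and 7 below. The groups did not overlap in 4, beside 21.0% of all tested genes without overlap. Of these 4, Rbbp7 and Mbd2 were higher, and Chd3 and Gatad2a lower. Chd3 and Chd4 encode the alternative remodeling ATPases of NuRD. Chd3 had 107, 55.7 and 58.4 TPM in WT and 53.0, 44.1 and 25.4 TPM in the libraries labelled Mtg16-/-. Its log2 difference was -0.84 (SE 0.32, limma's adjusted p = 0.312). WT replicate 1 was far above the others. The difference was -0.53 without WT replicate 1 and also -0.53 without Mtg16-/- replicate 3. Chd4 had 107 ± 15.2 and 104 ± 21.7 TPM (SD, n = 3 each, log2 fold change -0.05), and Mta2, a scaffold of NuRD, 106 ± 10.4 and 105 ± 4.74 TPM (-0.01), both with overlapping groups. Gatad2a, another structural subunit, did not overlap and was lower (-0.19, limma's adjusted p = 0.451).

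In the CoREST list, with 5 genes above 0 and 4 below, the groups of Kdm1a, the histone lysine demethylase LSD1, did not overlap. Its level was 32.5, 33.8 and 36.2 TPM in WT and 42.1, 43.9 and 37.8 TPM in the libraries labelled Mtg16-/- (log2 fold change 0.26, limma's adjusted p = 0.354). The CoREST scaffold gene Rcor1 was nearly flat, with 45.9 ± 0.721 and 45.8 ± 1.55 TPM (SD, n = 3 each). In the MiDAC list 2 of 3 genes were tested, and Dnttip1, its structural subunit, had 36.4 ± 1.20 and 40.4 ± 1.03 TPM (SD, n = 3 each) without overlap (0.15, adjusted p = 0.531).

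Of 15 other histone deacetylase genes 14 were tested, with 9 above 0 and 5 below. The groups did not overlap in 5, 4 higher and 1 lower, beside 21.0% of all tested genes without overlap. Hdac10 and Hdac11 were among those higher. Among the 5 was Hdac5, a class II deacetylase (10.9 ± 1.61 and 14.9 ± 1.03 TPM, log2 fold change 0.42, limma's adjusted p = 0.297). Others were Sirt5, a mitochondrial enzyme that removes acidic acyl groups (0.37, limma's adjusted p = 0.312), and Sirt7, a nuclear sirtuin (69.2 ± 8.66 and 53.4 ± 7.96 TPM, -0.37, limma's adjusted p = 0.322). Values after ± are SD, n = 3 each. Hdac8, the remaining class I gene, was much lower than Hdac1 to Hdac3, at 8.72 ± 1.30 and 10.5 ± 1.69 TPM (SD, n = 3 each), with overlapping groups. Of the opposing enzymes, 10 histone acetyltransferase genes were tested, with 3 above 0 and 7 below, and in 0 of them were the groups apart.

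Factors that recruit the complexes were described last. Of 12 genes of factors known to bind MTG proteins, 9 were tested. The groups of 3 did not overlap, beside 21.0% of all tested genes without overlap. Zbtb33, which encodes the zinc finger repressor Kaiso, had 11.0, 7.87 and 9.99 TPM in WT and 12.6, 14.4 and 15.7 TPM in the libraries labelled Mtg16-/- (log2 fold change 0.53, limma's adjusted p = 0.272). The protein-coding gene Tmem255a, on the opposite strand, overlaps 9.25% of its transcript. Rbpj, which encodes the DNA-binding partner of Notch, had 16.3 ± 0.720 and 19.1 ± 1.62 TPM (0.21, adjusted p = 0.447), and a pseudogene shares 22.9% of its runs of 50 bases. Bcl6, which encodes a zinc finger repressor, had 9.55 ± 1.16 and 7.24 ± 0.957 TPM (-0.36, adjusted p = 0.351; SD, n = 3 each).

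Of 13 nuclear receptor genes whose products recruit NCoR, 12 were tested. The groups of 5 did not overlap, 3 higher and 2 lower, beside 21.0% of all tested genes without overlap. Nr1h3, the oxysterol receptor LXR alpha, had 47.7, 36.2 and 36.2 TPM in WT and 33.7, 23.6 and 25.7 TPM in the libraries labelled Mtg16-/- (log2 fold change -0.52, limma's adjusted p = 0.284). The fatty acid receptors Ppara and Ppard differed in sign, with Ppara at 17.0 ± 1.79 and 22.6 ± 2.28 TPM (0.39, adjusted p = 0.297) and Ppard at 136 ± 11.3 and 108 ± 14.2 TPM (-0.33, adjusted p = 0.325; SD, n = 3 each). Their difference in sign was not tested.

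**Figure D4:**
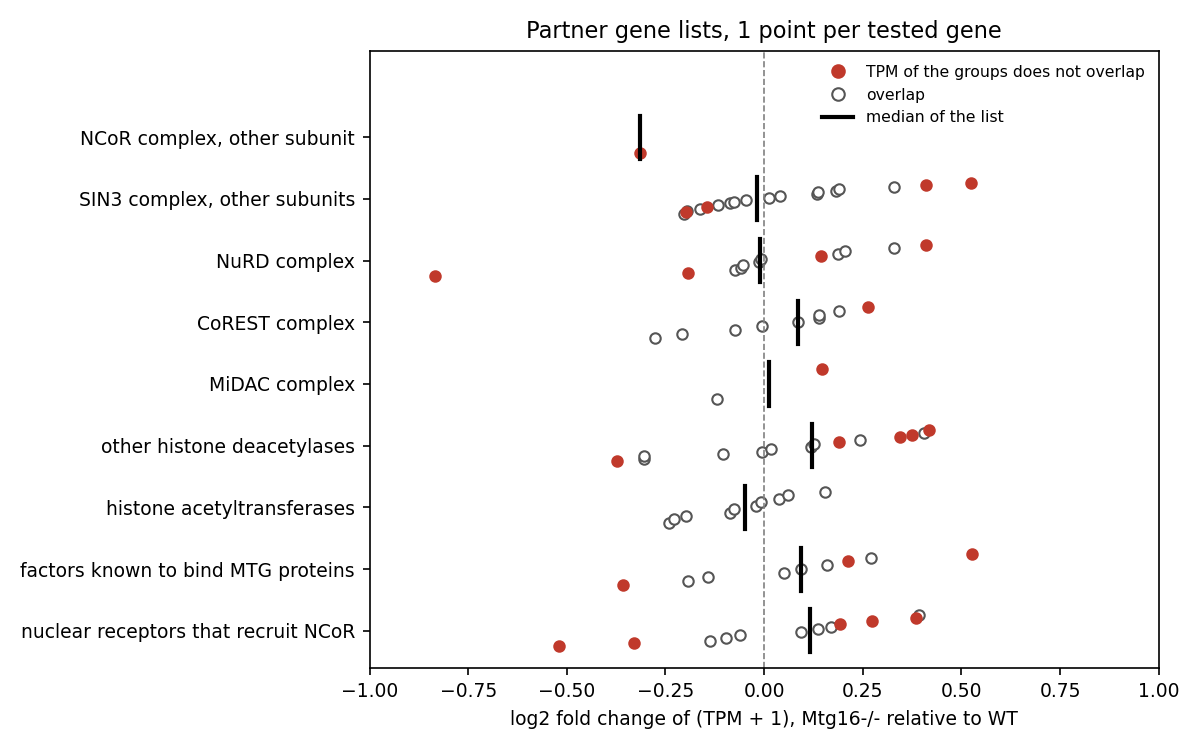
Log2 fold change of TPM + 1 in the libraries labelled Mtg16-/- relative to WT (horizontal axis) for each tested gene of 9 partner lists, with the median of the list as a black bar. Filled points are genes whose groups do not overlap, and genes in more than 1 list appear in each. Most points lie near 0, the medians of lists with more than 1 gene lie between -0.05 and 0.12, and Chd3 lies at -0.84, a value that is -0.53 without WT replicate 1.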

How the data were processed

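The authors quantified each library and deposited TPM values per gene symbol, rounded to 2 decimals. The submitters' processing notes name cutadapt 1.9.1, STAR 2.5.2a, RSEM 1.3.0, DESeq2 1.12.3 and the mm10 genome, without their roles. TPM keeps no read number, so depth is unknown and no count test was run. Here log2(TPM + 1) was tested with limma 3.58.1 (R 4.3.3, eBayes with trend, no covariates, Benjamini-Hochberg over the 12268 genes tested, those averaging 1 TPM or more). Fold changes on this scale understate those of low genes. Ratios used exact permutation tests (scipy 1.17.1). Coding sequences of the longest CCDS transcripts (GENCODE M21, GRCm38) were aligned globally with biopython 1.88.

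The 9 genes and all lists were chosen with earlier results of these data known. Besides the 9, the text names 10 partners picked by name, the MTG genes, called partner genes and, per list, up to 3 genes of largest difference among those without overlap. A further gene of the naming rule is not reported here. Alternatives were other pseudocounts, filters, scalings, moderation, array weights, a replicate block, libraries left out and a limit of 0.05.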

Additional observations from a re-analysis of the deposited data

How the results depend on the processing

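None of the 9 genes was called under any alternative run (smallest adjusted p from limma 0.196, for Hdac2 with the replicate block). Over the 11 alternatives that can move a fold change, the log2 value ranged from -0.39 to -0.15 for Ncor1, -0.21 to -0.09 for Gps2, 0.0816 to 0.26 for Tbl1x, 0.0344 to 0.19 for Tbl1xr1, 0.10 to 0.38 for Hdac2 and 0.0211 to 0.17 for Sin3b, so the order of the genes by size of change is not fixed. Hdac3 turned to -0.0036 with array weights, and with libraries left out in turn Sin3a ranged from -0.0155 to 0.13, Hdac1 from -0.0121 to 0.0259 and Hdac3 from -0.01065 to 0.10. The log2 ratio differences ranged from -0.13 to 0.0451 for Sin3a/Sin3b, from -0.10 to 0.20 for Tbl1x/Tbl1xr1 and from -0.39 to -0.14 for Hdac1/Hdac2. The median of the 9 genes was 0.16 after quantile normalization, 0.13 after rescaling without the 100 most abundant genes, 0.0211 with array weights, and 0.0344 to 0.12 with libraries left out. That of the partner genes was -0.04 to 0.09 with libraries left out.

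The number of genes called over the whole table was 4 in the limma fit described above, which is not the study's own test. It was 0 without a filter, after median-ratio rescaling, after rescaling without the 100 most abundant genes, without a trend and at a limit of 0.05. It was 1 (higher) after quantile normalization, 15 at a mean TPM of at least 5, 20 with robust moderation, 855 with array weights, and 0 to 20 with libraries left out (20 without WT replicate 1, and 1, 2 and 0 without Mtg16-/- replicates 1, 2 and 3). The causes were not tested. Same-numbered mice are different animals, and their deviations from the group means correlated at 0.429, 0.0753 and 0.237. One pair was below the limit of 0.1, so the numbers were not taken as pairing. This rule does not settle whether same-numbered libraries shared a day or batch. With the replicate block 1201 of the 12268 tested genes were called. Of the 85 partner genes 5 were (Chd3, Fam60a, Nr1h3, Rbbp7 and Sirt7), a smaller share than over all tested genes. Pairs of different number correlated at -0.331 (WT replicate 1 with Mtg16-/- replicate 3) to 0.198 (WT replicate 2 with Mtg16-/- replicate 3). The highest of these was above the value of WT replicate 2 with its own number. The block changed no call of the 9 genes. Array weights called 1 of the 85 partner genes, Zbtb33, again a smaller share than the 855 of all 12268 tested genes. With 3 libraries per group, intervals of the 9 genes span 0.48 to 0.79 on the log2 scale.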

Other observations

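Ncor1 and Hdac2 had their extremes in the same libraries, in opposite order, and this was looked at after their values were seen. Ncor1 was highest in WT replicate 1 and lowest in Mtg16-/- replicate 3, as were 14 of the 85 partner genes, among them Coro2a, Chd3 and Sirt7. Hdac2 was lowest in WT replicate 1 and highest in Mtg16-/- replicate 3, as were 7 partner genes, among them Rbbp4, Rbbp7 and Fam60a. Over all tested genes the first order was present in 18.4% and the second in 9.38%, so neither is particular to the corepressor genes. The summed TPM of the 10 enterocyte markers had the same extremes as Ncor1, 35950 in WT replicate 1 and 6462 in Mtg16-/- replicate 3, and its part in these values was not tested.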
